A study of Camelus dromedarius with 4 samples.

Results

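The genes described here are those of the hormones vasopressin (AVP, listed by the authors as PUTATIVE_AVP) and oxytocin (OXT) and of their receptors AVPR1A, AVPR1B, AVPR2 and OXTR in the supraoptic nucleus of the dromedary camel. They were taken by symbol from a table of season means and make up 6 of its 16053 symbols with values. RNA-seq libraries were made from the supraoptic nuclei of adult, age-matched, hydrated male camels of the Tergui breed. The 2 winter libraries (replicates 2 and 3) came from animals killed at El Oued and the 2 summer libraries (replicates 1 and 2) from animals killed at Ouargla, both in Algeria, so that season, place and day of slaughter cannot be told apart. The comparison asks whether the genes of the neurohypophysial hormone system differ in transcript level between winter and summer.

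Vasopressin and oxytocin are peptides made by the magnocellular neurons of the supraoptic and paraventricular nuclei, carried down their axons to the posterior pituitary and released there into the blood. Vasopressin acts on the kidney to retain water, and its gene is known to respond to water deprivation in laboratory rodents, while oxytocin acts on the uterus and the mammary gland and, in several species, on sodium excretion. AVPR1A and AVPR1B signal through phospholipase C and calcium, AVPR2 through cyclic AMP in the renal collecting duct, and OXTR mostly through phospholipase C. In RefSeq's annotation of the dromedary assembly mCamDro1.pat, in which all 6 symbols were found, AVP lies next to OXT on one side and to UBOX5 on the other. The hormone genes are alike over part of their coding sequence in mammals, and reads that fitted both were not measured, so that both levels are uncertain to that extent.

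The 4 libraries held 4379162 to 6902037 reads on gene models, which were 20.7% to 27.8% of the tallied alignments. The named genes were available as the authors' means of each season, in counts divided by size factors (scaling factors for library depth). Each mean is a sum of whole reads over 2 libraries, and reads could be solved for in 100.0% of the symbols, with a single solution in 9921 of them. These recovered reads do not name the replicate, and a library is therefore named by its size factor, which was 1.33 or 0.946 for the winter pair and 0.922 or 0.877 for the summer pair. As a check of the tissue, SIM1, OTP and POU3F2, transcription factors that specify the magnocellular lineage, had season means of 38.6 to 56.3 normalized counts, and all 7 anterior pituitary markers also had reads, with summed means of 902 in summer and 1476 in winter. The direction of these sums was set by GH1, growth hormone, at 464 in summer and 1132 in winter. Of the 5 pituitary markers with a mean of 10 or more in either season, 3 were higher in summer.

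The mean level of AVP was higher in summer than in winter. It was 11822 normalized counts in summer and 2559.6 in winter, 4.62 times as much in summer. On the scale of log2(mean + 1), winter minus summer, the difference was -2.21. AVP took 0.344% of all normalized counts in summer and 0.0732% in winter. Across the 13811 symbols with a mean of 10 or more in either season, 6.42% lay more than 2-fold apart, 3.98% with the higher mean in summer and 2.44% in winter, and the median log2 ratio was -0.04. Only 24 of these symbols lay further toward summer than AVP, and 43 differed by more in either direction.

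**Figure D1:**
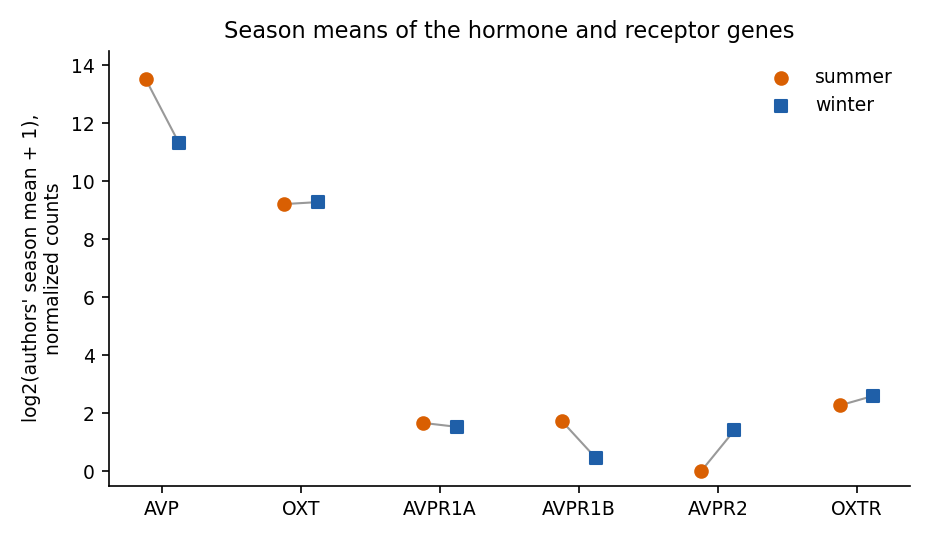
Authors' mean of each season on the scale of log2(mean + 1) normalized counts for the 6 genes, with summer as circles and winter as squares joined by a line. AVP is at 11822 in summer and 2559.6 in winter, OXT is nearly level and the receptors lie near the bottom of the axis.

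Among abundant genes, AVP had the largest difference. Of the 610 symbols with a mean of 1000 or more in either season, 15 (2.46%) were more than 2-fold apart, and 3 of them (0.492%) had the higher mean in summer, namely AVP, APOA1 and TEX14. APOA1, which encodes the main apolipoprotein of high-density lipoprotein, had a summer mean of 2650.1 and a winter mean of 922 normalized counts, a log2 difference of -1.52. TEX14 had 3129 in summer and 1138 in winter, a log2 difference of -1.46. None of the 610 symbols had a larger difference than AVP in either direction. The median log2 ratio of these abundant symbols was 0.05.

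**Figure D2:**
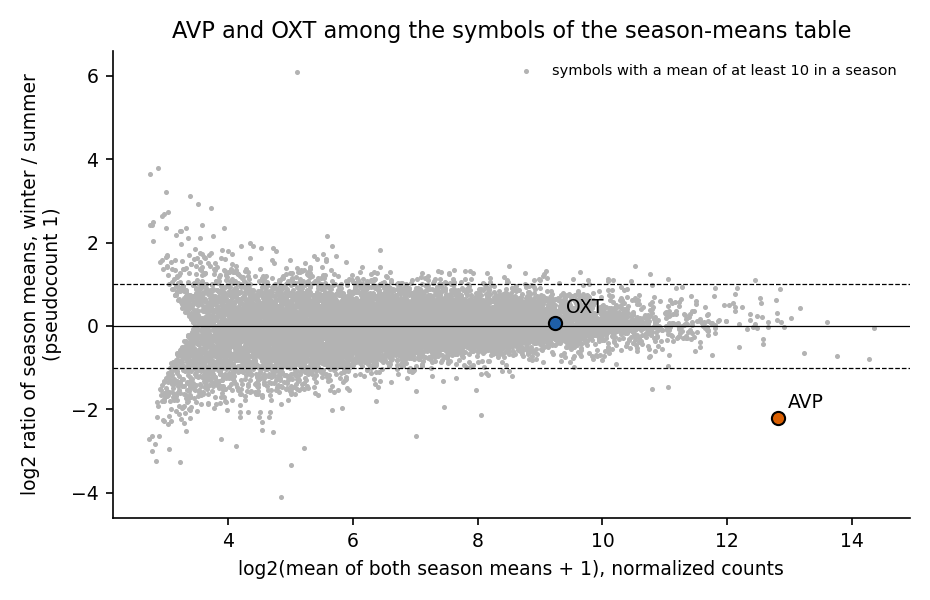
Each point is 1 of 13811 symbols with a mean of 10 or more normalized counts in either season, placed by the log2 of its mean level (x axis) and its log2 ratio of winter to summer means (y axis, pseudocount 1), and the dashed lines mark a 2-fold difference. AVP, at -2.21, lies below all other symbols of its abundance and OXT, at 0.07, lies on the middle line.

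The reads of AVP in the single libraries could not be recovered, since many pairs of whole numbers give the same mean. Its season means allow 3833 pairs in summer, with 20743 to 21803 reads in all, and 129 pairs in winter, with 4848 to 6750 reads. The means nevertheless set limits. Had 1 winter library held every winter read of AVP, its value would have been 5119 normalized counts, and the summer mean was 2.31 times this. At least 1 summer library therefore lay above both winter libraries, however the reads were divided. With each summer library holding at least 21.7% of the summer normalized reads, the seasons could not overlap, and with the winter reads divided evenly this share was 10.8%.

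The test of AVP depended on that division. Splits of its reads were placed one at a time in edgeR's quasi-likelihood fit of all symbols with a single solution and a mean of 10 or more. With the reads most evenly divided in both seasons edgeR's quasi-likelihood p was 5.59e-05, with a Benjamini-Hochberg adjusted p of 0.43. This split was chosen for the least difference between libraries, which fixes a small spread within each season. Its p is therefore not one measured on replicates. The other 8 of the 9 splits were set at the extremes, with nearly all reads of at least 1 season in a single library, which fixes a large spread within that season. At these extremes edgeR's quasi-likelihood p ran up to 0.717 and its adjusted p up to 0.988. The 9 splits mark the ends of what the means allow and say nothing of which division is likely, and 0 of them had an adjusted p under 0.05. The difference in season means of AVP is therefore given as a difference between the authors' means, without a replicate error. With 2 libraries against 2, an exact two-sided permutation test cannot give a p below 0.333. In bulk tissue, fewer magnocellular neurons and less AVP RNA per neuron cannot be told apart.

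Other genes of magnocellular neurons could be read in single libraries. SIM1, needed for the formation of these neurons, had 63.4 normalized counts in the winter library of the larger size factor, 13.7 in that of the smaller one, and 48.8 and 63.8 in the summer libraries of the larger and the smaller factor. OTP, which acts in the same developmental step, had 79.2 and 21.2 in winter, then 41.2 and 37.6 in summer, with the libraries in the same order. POU3F2, which acts downstream of SIM1, had 44.5 and 44.4 in winter and 30.4 and 60.4 in summer. The winter library of the smaller size factor was thus the lowest of the 4 libraries for SIM1 and OTP but not for POU3F2, and the seasons overlapped for all 3 genes.

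PDYN, the precursor of dynorphin, an opioid peptide stored with vasopressin in the same neurons, had 63.4 and 8.46 normalized counts in winter and 128 and 127 in summer. Both summer libraries lay above both winter libraries for PDYN, and edgeR's quasi-likelihood log2 difference was -1.76 (SE 0.68, adjusted p = 0.983). Without the winter library of the larger size factor it was -3.89, and without that of the smaller one it was -1.0 and PDYN no longer passed an unadjusted p under 0.05. Without the summer library of the larger or of the smaller size factor the log2 difference of PDYN was -1.78 or -1.79. Of the symbols with single solutions and a mean of 10 or more, 30.5% did not overlap between the seasons, 17.2% with summer above winter and 13.3% with winter above summer. Set against these genes, the mean of AVP was 210 times that of SIM1 in summer and 66.4 times in winter, on raw abundance without correction for length. If the winter library of the larger size factor had held all AVP reads of winter, its AVP would have been 80.8 times its SIM1. The ratio of AVP to PDYN was 92.9 in summer and 71.3 in winter. The size factors of the count files, 1.27 in winter replicate 2 and 0.901 in winter replicate 3, point to replicate 3 as the low winter library. The study's legend to its peptide measurements calls winter sample W3 of the nucleus incorrectly isolated. Whether W3 came from the same animal as winter replicate 3 is not stated in the sources used here. The winter means of AVP, SIM1, OTP and PDYN carry this doubt. Without either winter library, the AVP of the other could be at most the 5119 normalized counts given above. In the winter library of the larger size factor alone, SIM1, OTP and PDYN were at 63.4, 79.2 and 63.4. In that of the smaller size factor alone, they were at 13.7, 21.2 and 8.46.

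**Figure D3:**
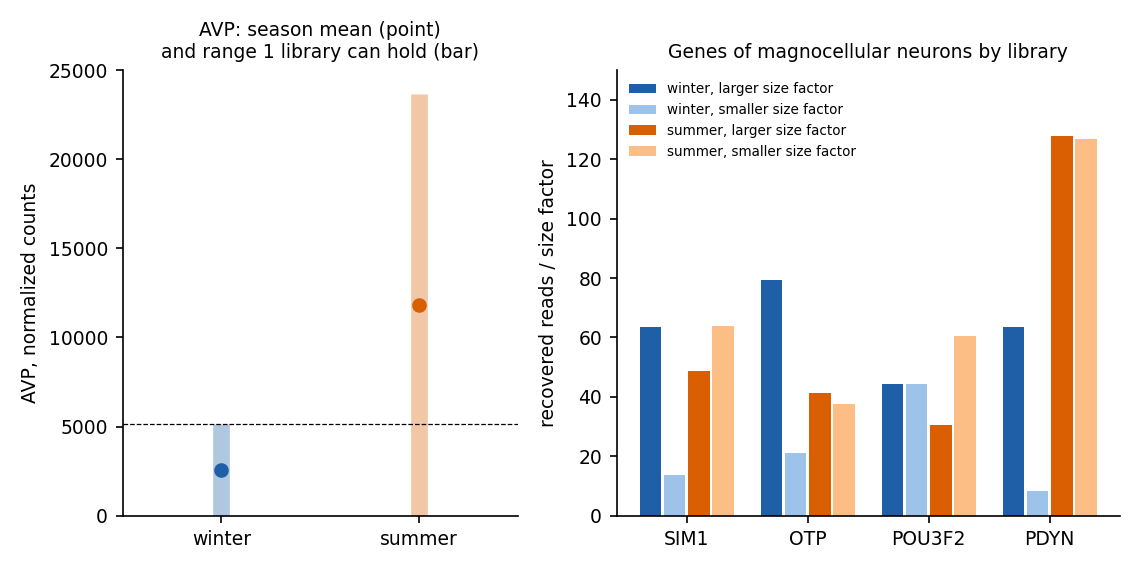
Left, the AVP mean of each season in normalized counts (point) with the range that 1 library of that season could hold (bar), the dashed line marking the 5119 that is the most a winter library can hold. Right, recovered reads divided by the size factor for SIM1, OTP, POU3F2 and PDYN in each library, where the winter library of the smaller factor is low for SIM1, OTP and PDYN.

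The season means of OXT lay close together. Its mean was 592 normalized counts in summer and 621 in winter, 1.05 times as much in winter, a log2 difference of 0.07. It took 0.0173% of all normalized counts in summer and 0.0178% in winter. Of the 13811 symbols with a mean of 10 or more, 11979 differed by more than OXT.

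The OXT reads of single libraries were narrowed to a few pairs. In summer, the library of the larger size factor held either 335 reads with 720 in the other, or 849 with 231. After division by the size factors these were 363 and 821, or 921 and 263, normalized counts. In winter the pairs were 326 and 941 reads, 511 and 809, or 1614 and 22, which gave 246 and 995, 386 and 856, or 1220 and 23.3 normalized counts. Under each of these pairs the 2 libraries of a season lay more than 2-fold apart, and the seasons overlapped in all 6 combinations. Placed in edgeR's quasi-likelihood fit, these combinations gave p values of 0.918 to 0.956, with adjusted p of at least 0.996. The spread between libraries of a season was larger than the difference between the seasons.

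The direction of OXT depended on the scaling. Scaled to the summed neuron markers its log2 difference was -0.28, and relative to SIM1 it was 0.60. AVP stayed higher in summer on both, at -2.55 and -1.67. The mean of OXT was 10.5 times that of SIM1 in summer and 16.1 times in winter.

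The balance of the hormone genes differed between the seasons with AVP. The ratio of AVP to OXT, in which any scaling common to a season cancels, was 19.9 in summer and 4.12 in winter (pseudocount 1), a log2 difference of -2.27 and a 4.84-fold higher ratio in summer. The ratio within a season is one of counts without correction for the length of the transcripts.

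The symbols with season means most like AVP were FTL, SPARCL1, MACF1, TTN and APOE, at distances of 1.3 to 1.5 log2 units over the 2 season means, so that no symbol came close to its pattern. FTL, a ferritin subunit, had 5485 normalized counts in summer and 3867 in winter. Around OXT the nearest symbols were KIAA0232, STRAP, PRPF4B, POGZ and FYN, at 0.0094 to 0.026 log2 units.

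Transcripts of the receptors were near the limit of detection in the nucleus. All 4 had means under 10 normalized counts in both seasons, as did 2242 symbols, 14.0% of those with values. Together the receptors held 23 reads in winter and 15 in summer. A library with no read of a gene allows up to 3 reads, which is 2.26 to 3.42 normalized counts depending on the library, and covers counting error only.

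OXTR was the receptor with the most reads. It had 12 reads in the winter library of the larger size factor and 1 in that of the smaller one, and 6 and 1 in the summer libraries, which are 9.06 and 1.06, and 6.51 and 1.14, normalized counts. In each season the library of the larger size factor carried nearly all OXTR reads, and the seasons overlapped. The winter rate was 1.47 times the summer rate, with an exact 95% interval of 0.546 to 4.36 that covers counting error only. With edgeR's quasi-likelihood test the log2 difference was 0.51 (SE 1.26, adjusted p = 0.989).

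AVPR1A, the vasopressin receptor of smooth muscle, liver and brain, was read 5 and 0 times in winter, and 4 and 0 times in summer, with the libraries in the same order. Its normalized counts were 3.77 and 4.34 in the libraries that held reads. The winter rate was 0.991 times the summer rate, with an exact 95% interval of 0.213 to 4.99, and edgeR's quasi-likelihood log2 difference was -0.03 (SE 1.79, adjusted p = 0.999). The sign of AVPR1A turned with upper quartile scaling and with scaling to total reads, at 0.0096 and 0.044. Like OXTR, it was read only or mainly in the library of the larger size factor of each season.

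AVPR1B, the vasopressin receptor of the pituitary cells that make corticotropin, was read 1 and 0 times in winter, and 0 and 4 times in summer. Its mean was 0.377 normalized counts in winter and 2.28 in summer, with all summer reads in the library of the smaller size factor. The ratio of the winter to the summer rate was 0.198, with an exact 95% interval of 0.00402 to 2.0, and edgeR's quasi-likelihood log2 difference was -2.06 (SE 2.08, adjusted p = 0.984). The 5 anterior pituitary markers with single solutions summed to 311 normalized counts in that summer library and 138 in the other, with LHB the opposite way (8 and 33 reads), and to 137 and 210 in winter. The part of pituitary tissue in the AVPR1B reads was not tested.

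AVPR2, the receptor through which vasopressin acts on the kidney, was read 3 and 1 times in winter and 0 times in both summer libraries. Its normalized counts were 2.26 and 1.06 in winter, at or under the level that a count of 0 allows, and no fold is given (adjusted p = 0.984, edgeR's quasi-likelihood fit). It was the only 1 of the 4 receptors whose seasons did not overlap, where 29.1% of all symbols with a single solution did not overlap and 13.6% had winter above summer.

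None of the 4 receptors passed edgeR's quasi-likelihood test, either at an unadjusted p under 0.05 (0 receptors) or at an adjusted p under 0.05 (0 receptors), and in 36 receptor tests by edgeR, DESeq2 and limma-voom on all libraries the smallest unadjusted p was 0.106. Across all 9921 symbols fitted without a filter, 1.85% passed an unadjusted p under 0.05, and 1.61% did so with more than a 2-fold difference. On the scale of log2(mean + 1), 2 of the 4 receptors (AVPR1B and AVPR2) were more than 2-fold apart, beside 10.3% of all symbols without a filter, and both rest on at most 5 reads.

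**Figure D4:**
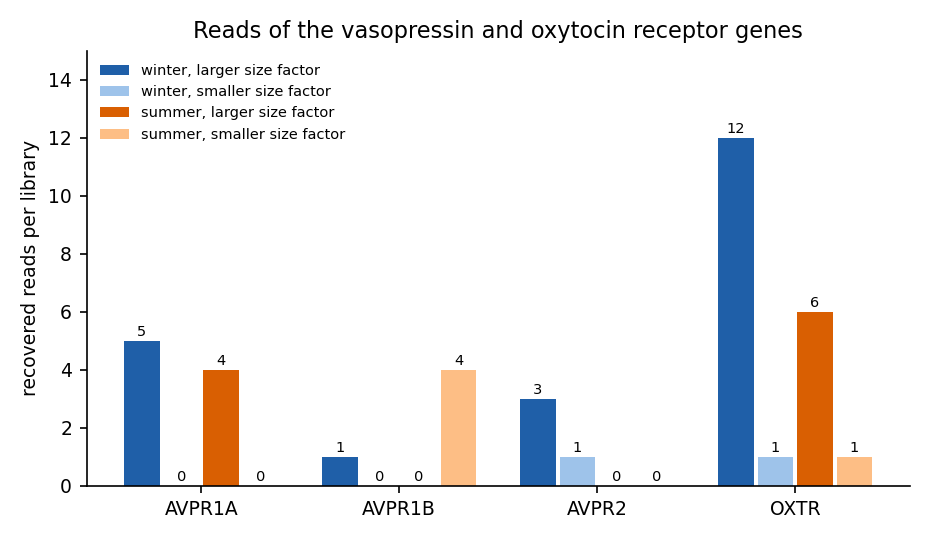
Recovered reads of AVPR1A, AVPR1B, AVPR2 and OXTR in the 4 libraries, as bars from 0 with the count above each. OXTR reaches 12 reads in the winter library of the larger size factor, and 6 of the 16 bars are at 0.

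The share of the receptor reads in each library was set beside its size factor. The winter library of the smaller size factor held 2 of the 23 winter reads, 8.7% (exact 95% interval 1.07% to 28.0%), while its size factor was 41.6% of the winter sum. In summer the library of the smaller factor held 5 of 15 reads, 33.3% (exact 95% interval 11.8% to 61.6%), beside 48.8% of the size factors, which lies within the interval. These intervals treat reads as independent and cover counting error only, and most winter reads were those of OXTR.

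The genes around the hormones were described in 6 lists of 89 genes, of which 86 had values and 80 had a mean of 10 or more in either season. Of the 80 genes, 7 (8.75%) were more than 2-fold apart, beside 6.42% of all symbols. Recovered reads could be tested for 34 of them. Only PDYN passed an unadjusted p under 0.05 with more than a 2-fold difference in edgeR's quasi-likelihood test, where 1.67% of 7679 symbols did, and 1 gene each passed in edgeR's exact test, DESeq2 and limma-voom. No gene of the lists had an adjusted p under 0.05 in any of these tools (0 genes each).

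Transcription factors of the hypothalamus had 1 of 6 genes with a mean of 10 or more lying more than 2-fold higher in winter and 0 in summer, with a median log2 difference of 0.17. The gene was LHX5, an early patterning factor, with 38.5 and 42.3 normalized counts in winter and 0 and 20.5 in summer, and a log2 difference in means of 1.88. Its 2 winter libraries lay above both summer libraries, as did those of 13.3% of the symbols with single solutions and a mean of 10 or more. LHX5 did not pass edgeR's quasi-likelihood test (adjusted p = 0.983). SIM1 was lowest in the list at -0.54.

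Genes that cut and pack the precursors were represented by 12 genes, 1 more than 2-fold higher in winter and 1 in summer, with a median of 0.24. SCG2, a granin of the dense-core vesicle, had means of 554 in summer and 1195 in winter, a log2 difference of 1.11, and CHGB, another granin, followed at 0.70. PCSK1, a convertase that cleaves prohormones, had 41.5 and 24.3 normalized counts in winter and 82.4 and 55.9 in summer, a log2 difference in means of -1.05. The seasons did not overlap for PCSK1, beside 17.2% of such symbols with summer above winter, and it did not pass edgeR's quasi-likelihood test (adjusted p = 0.983). SCG5, a chaperone of PCSK2, was next lowest at -0.17.

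Peptides and transmitter genes found with the hormones in magnocellular neurons had 7 measured genes, 1 more than 2-fold apart in each direction and a median of 0.38. PDYN was the one higher in summer, at -1.80 in season means, and CARTPT the one higher in winter, at 1.41. CARTPT, an anorexigenic peptide precursor, was read 20 and 6 times in winter, and 0 and 6 times in summer, near the limit of detection. APLN, the precursor of apelin, a peptide that opposes vasopressin on the kidney, had 11.7 normalized counts in summer and 16.9 in winter, and SLC17A6, a vesicular glutamate transporter, 201 and 213. GAL was not analysed here.

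Known regulators of AVP expression and genes of osmosensing had 16 measured genes, 0 more than 2-fold higher in winter and 2 in summer, with a median of -0.03. ATF3, a stress-induced transcription factor, had 77.7 and 10.6 normalized counts in winter and 56.4 and 190 in summer, a log2 difference in means of -1.46. NR4A1, an immediate early gene, had 18.1 and 6.35 in winter and 7.59 and 62.7 in summer, a log2 difference of -1.45. For ATF3 and NR4A1 the high summer mean rested on the library of the smaller size factor, and the seasons overlapped. CREB3L1, a transcription factor that drives AVP, had 7.95 normalized counts in summer and 11.6 in winter, and RASD1, a small G protein, 12.7 and 19.4.

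Genes of signalling downstream of the receptors, from G proteins to kinases and arrestins, had 28 measured genes, 0 of them more than 2-fold apart, with a median of 0.19. The extremes were ADCY6 at 0.60 and ADCY9 at 0.55, adenylyl cyclases, and RGS2 at -0.75, a regulator of G protein signalling, and PRKACB at -0.43, a catalytic subunit of protein kinase A. RGS2 had 73.9 and 40.2 normalized counts in winter and 110 and 83.2 in summer and did not pass edgeR's quasi-likelihood test (adjusted p = 0.983).

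Genes of peptide release and breakdown had 11 measured genes, 0 of them more than 2-fold apart, with a median of -0.32. SYT1 and SNAP25, of the vesicle fusion machinery, were highest at 0.83 and 0.76. MME, the peptidase neprilysin, was lowest at -0.90, with 55.1 and 48.6 normalized counts in winter and 69.4 and 125 in summer, and CD38, which acts in oxytocin release, followed at -0.82. Both summer libraries of MME lay above both of winter, beside 17.2% of symbols with single solutions and a mean of 10 or more (adjusted p = 0.983 in edgeR's quasi-likelihood test).

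**Figure D5:**
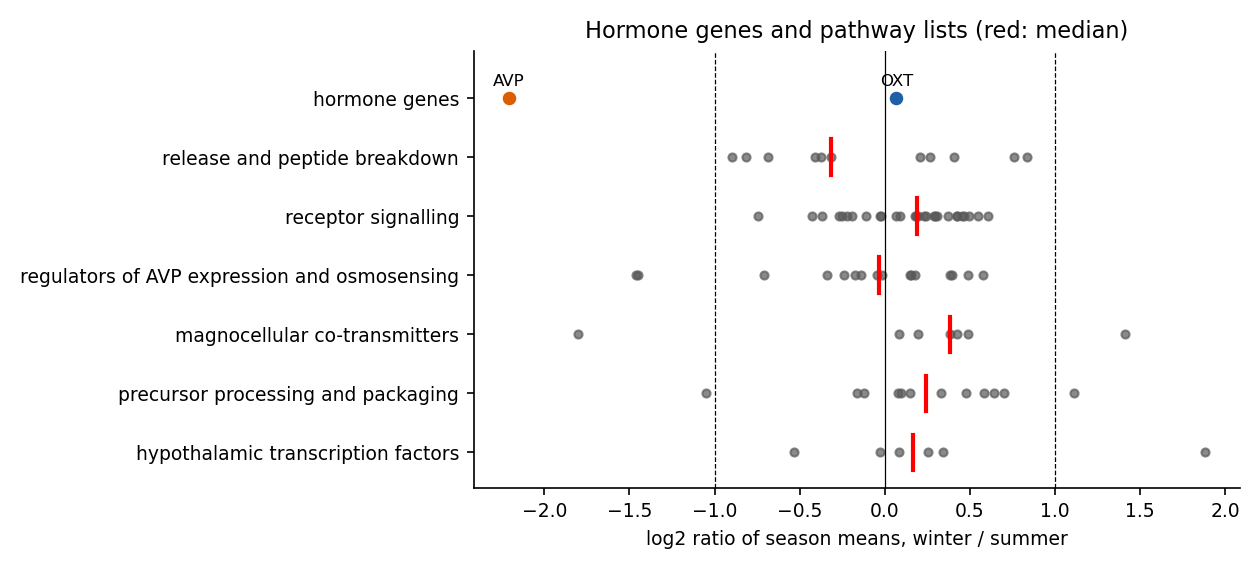
Log2 ratio of winter to summer means (x axis, pseudocount 1) for AVP, OXT and each gene of the 6 lists with a mean of 10 or more normalized counts in either season, with list medians in red and 2-fold differences dashed. AVP, at -2.21, lies further toward summer than every listed gene, PDYN at -1.80 being nearest.

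The summed cell type markers also differed between the seasons. The summed means of neuron markers were 6842 normalized counts in summer and 8701 in winter, with 8 of 9 measured markers higher in winter. Only SNAP25 and RBFOX3 among them could be read in single libraries. They summed to 405 and 159 in winter and 94.3 and 233 in summer, so that the sums overlapped. Most of this was SNAP25, at 352 and 122 in winter and 79.2 and 199 in summer. Its winter excess rested on the library of the larger size factor. RBFOX3 had 53.6 and 37.0 in winter and 15.2 and 33.1 in summer. Both its winter libraries lay above both of summer, beside 13.3% of symbols with single solutions and a mean of 10 or more. Astrocyte markers summed to 37900 in summer and 22990 in winter, with 4 of 7 higher in summer. Of these sums GFAP made up 25074 and 14423 and S100B 11788 and 7490, while ALDH1L1, SLC1A2 and SLC1A3 were higher in winter. Oligodendrocyte markers summed to 33800 in summer and 37550 in winter, with 6 of 7 higher in winter. Microglia markers summed to 5560 in summer and 4094 in winter, with 4 of 6 higher in summer. Of these sums C1QB made up 3476 and 2278, while CSF1R and TMEM119 were higher in winter. Endothelial and pericyte markers summed to 1325 in summer and 1213 in winter, with 4 of 6 higher in summer. Retinal markers summed to 57.4 in summer and 22.5 in winter, of which only RPE65 had a mean of 10 or more. Markers of neurons in neighbouring hypothalamic nuclei summed to 1430 in summer and 999.5 in winter, a direction set by POMC, the melanocortin precursor that is also abundant in the pituitary, at 1294 in summer and 738 in winter. Without POMC the other 6 summed to 136 in summer and 262 in winter. Of the 6 markers of this list with a mean of 10 or more, 4 were higher in winter and the median log2 difference was 0.54. More than 2-fold higher in winter were 2 of them, PMCH at 2.16 and TRH at 1.53, and 0 were so in summer. TRH passed the rule of an unadjusted p under 0.05 with a 2-fold difference (adjusted p = 0.983, edgeR's quasi-likelihood fit). Of the pituitary markers GH1, growth hormone, was at 464 in summer and 1132 in winter and PRL, prolactin, at 213 in summer and 170.3 in winter. No measured marker of these lists was at 0 in both seasons, and the part of cell composition in the difference of AVP was not tested.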

How the data were processed

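RNA from the supraoptic nucleus was sequenced in 2 winter and 2 summer libraries. The authors aligned reads of stranded, ribosomal RNA-depleted libraries with TopHat to their own dromedary assembly, counted them with HTSeq, and scaled them with DESeq; versions are not given in the sources used here. Deposited counts are raw reads for 64989 gene models without names. They were not matched to symbols and served for depth and the closing section. In a second deposited table the authors gave, per symbol, a signal (the season mean of counts over DESeq size factors), and a ratio (edgeR's fold change) and p-value, both unused. Its 2099 symbols listed as NA were left out.

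Means are printed to 6 significant digits, and each read adds a fixed step per library, so whole reads were solved for in all 16053 symbols, of which 7679 had a single solution and means of 10 or more in either season. The test was edgeR 4.0.16 (R 4.3.3, glmQLFit, glmQLFTest, legacy set to FALSE, Benjamini-Hochberg), with library sizes from the size factors, and 128 symbols passed p under 0.05 and 2-fold. Single solutions favour low means. Since no member passed that filter with a single solution, the receptors are given from the planned fit without a filter. Season means were compared as log2(mean + 1) without a test. Alternatives were DESeq2 1.42.0, limma-voom (limma 3.58.1), edgeR's exact test, other scalings and filters, and each library left out. Intervals are exact 95%, and floors are 3 reads. Scripts were tested on simulated data, and figures drawn with matplotlib 3.10.9.

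The members and lists were chosen with earlier results of these data known. Genes named were the members, the 2 highest and 2 lowest of each pathway list, and the 5 nearest AVP and OXT. APOA1, TEX14, and the marker genes GH1, PRL, POMC, PMCH, TRH and LHB were named after their values were seen. So were the astrocyte markers GFAP, S100B, ALDH1L1, SLC1A2 and SLC1A3. The labels give separate samples, and 2 libraries a season limit every difference.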

Additional observations from a re-analysis of the deposited data

Results flagged for a closer look

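The count files cover gene models without names, which the comparisons of named genes did not use. Of 104 gene models with a summer mean at or above the winter mean of AVP, 3 were more than 2-fold higher in summer, as were 3 of 92 symbols of that level in the season-means table. CDRV1_G00006613 had summer and winter means of 4908 and 532.6 normalized counts, 9.22 times as much in summer, from 611 and 527 reads in winter replicates 2 and 3 and 4917 and 4344 reads in summer replicates 1 and 2. CDRV1_G00016794 had 6068 in summer and 2787 in winter, 2.18 times as much, and CDRV1_G00029159 had 3387 and 1667, 2.03 times as much. For all 3 gene models both summer libraries lay above both winter libraries. They were picked for their height in summer and for lying more than 2-fold higher there, so no test is given. That choice favours libraries that do not overlap, and the share over all gene models is not given here. Which of them, if any, carries AVP is not known from the files.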

How the results depend on the processing

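AVP, at -2.21 on the log2 scale of season means, was -2.55 scaled to the neuron markers. In settings chosen after seeing the data, it was -1.67 relative to SIM1 and at most -1.21 with 1 winter library left out. That bound puts all winter reads of AVP in the library that is kept. OXT, at 0.07, was -0.28 scaled to the neuron markers and 0.60 relative to SIM1. Of the 887 symbols more than 2-fold apart, the count became 1661 without a filter, 458 with means of 10 or more in both seasons, 2957 at 1.5-fold, 182 at 3-fold and, chosen after seeing the data, 15 at a mean of at least 1000. On recovered reads, 128 symbols passed the rule of p under 0.05 and 2-fold, against 60 with DESeq2 and 83 with limma-voom, and 35 to 1172 with 1 library left out. The count was 35 without the winter library of the larger size factor and 49 without the smaller, and 1121 and 1172 without the summer libraries of the larger and the smaller. Of the 128 symbols, 50.8% were higher in winter, and of 168 symbols with scaling by total reads, 72.6%. Symbols with an adjusted p under 0.05 numbered 0 with edgeR's quasi-likelihood test (151 at an unadjusted p under 0.05), 1 with its exact test, 1 with DESeq2 and 0 to 296 with 1 library left out (296 and 228 without the larger and the smaller summer library).

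The log2 difference of AVPR1A, -0.03, was 0.0096 with upper quartile scaling and 0.044 with total reads, and -4.11 to 4.25 with 1 library left out. AVPR1B, at -2.06, ran from -4.11 to 2.24, turning without the summer library of the smaller size factor. OXTR, at 0.51, ran from -1.75 to 2.15, turning without the winter library of the larger size factor or the summer library of the smaller one. A season left with 1 library is assumed to vary like the other. The causes were not tested, beyond the fewer libraries or other symbols that a setting holds. In season means, OXTR turned from 0.33 to -0.02 scaled to the neuron markers, and with a pseudocount of 10 AVPR1B went from -1.25 to -0.24 and AVPR2 from 1.41 to 0.22, under 2-fold. No paired analysis was possible because the seasons share only 1 replicate number and the recovered reads carry none. Few reads limit the receptors, and the unknown division between libraries limits AVP and OXT.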

Other observations

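Some marker genes of neighbouring hypothalamic neurons and of the retina differed between the libraries of a season. Which tissue or cells gave these reads was not tested. PMCH, the precursor of melanin-concentrating hormone made in the lateral hypothalamus, had 149 normalized counts in the winter library of the larger size factor, 5.29 in that of the smaller one, and 23.9 and 9.12 in the summer libraries of the larger and the smaller factor. TH, tyrosine hydroxylase, had 98.9 and 14.8 in winter and 21.7 and 70.7 in summer. RPE65, a gene of the retinal pigment epithelium, had 84 reads in the summer library of the smaller size factor, 6 in the other summer library, and 28 and 12 in winter. These genes were named after their values were seen.

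No gene model of the count files had the season means of AVP. The nearest lay 0.92 log2 units away over the 2 seasons, and of 114 symbols as abundant in a season, only 1, AVP itself, had its nearest gene model that far away, against a median distance of 0.074. Such distances also depend on how many gene models lie nearby, and even the nearest symbol to AVP was 1.3 log2 units away. A small distance therefore does not show that a gene model carries a symbol, and the median is no measure of correct matches.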
